A study of Mus musculus with 2 samples.

Results

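The 6 mouse genes of the platelet-derived growth factor (PDGF) family that encode ligands or receptors are described here, out of 18193 genes on the array. They are the ligand genes Pdgfa, Pdgfb, Pdgfc and Pdgfd and the receptor genes Pdgfra and Pdgfrb, taken by symbol with every probe set annotated to a single one of them. There were 14 such probe sets. Mutant cells came from hearts with the genotype Tie2Cre;Tbx20 loxP/-, which carry 1 floxed and 1 null allele of the T-box factor gene Tbx20, and control cells from Tie2Cre;Tbx20 +/loxP hearts, which carry 1 working and 1 floxed allele. Both genotypes carried Tie2Cre, a transgene active in endothelium, endocardium and the cells derived from them as well as in blood cells, and both were taken at embryonic day 12.5. Live cells of that lineage were sorted by flow cytometry without cells bearing CD41, CD45 or Ter119, and each genotype was hybridised to 1 Affymetrix array. The null allele was present in every cell of the mutant embryos, also outside the lineage. In the sorted lineage the floxed allele was exposed to Cre in both genotypes, the control included. The labels do not say how fully it was deleted. How many embryos each array represents is not given in the sources used here.

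PDGF chains are secreted as disulphide-linked dimers and act through receptor tyrosine kinases of class III, which dimerise and phosphorylate each other when a ligand binds. PDGF-A and PDGF-C bind mainly the alpha receptor, PDGF-B binds both receptors, and PDGF-D binds mainly the beta receptor. PDGF-C and PDGF-D are secreted with a CUB domain that proteases must remove before they can act. In developing vessels, PDGF-B from endothelium recruits mural cells that carry the beta receptor. In the heart, the alpha receptor is known from the mesenchyme of the cushions and outflow tract and from epicardium-derived cells that become fibroblasts.

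With 1 array per genotype there was no replicate, so no test between genotypes could be made and every difference below is one between these 2 arrays. An effect of genotype and any other difference between the 2 preparations cannot be told apart. Signals are MAS5 intensities in arbitrary units, and ratios are log2 of mutant over control. A probe set counted as measured when it lay above the median of its array, 82.4 in the mutant and 91.3 in the control, on both arrays. Over the 10665 measured genes the median log2 ratio was -0.01 (SD 0.38 over genes). Tbx20, the targeted gene, read 6416, 5262 and 4245 in the mutant, against 7638, 6128 and 7050 in the control, on its 3 probe sets. All 3 were lower in the mutant and far above the floor, and the labels do not say whether they lie in the deleted part. All 18 spike-in probe sets read lower on the mutant array, by a mean log2 ratio of -0.45, and the 3' over 5' ratio of Gapdh was 1.64 in the mutant and 2.27 in the control. The part of these array differences in the results below was not tested.

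Among the PDGF genes, Pdgfc differed by the widest margin and was lower in the mutant. Pdgfb and Pdgfrb were moderately lower on each of their probe sets. Pdgfa and Pdgfra had probe sets that disagreed in sign as deposited, which for Pdgfa depended on the scaling. Pdgfd was below the floor of the control array on all its probe sets. Of the 14 probe sets, 11 were measured, 6 of the 9 for ligands and 5 of the 5 for receptors. Among those 11, 9 were lower and 2 higher in the mutant as deposited, with a median log2 ratio of -0.34. Of all 19273 measured single-gene probe sets, 50.1% were lower, and their median was 0.00. A loess fit on brightness shifted the 11 PDGF ratios by -0.05 to 0.15, with the highest shifts on the dimmest probe sets. The dimmer Pdgfa probe set thereby turned from lower to higher. The members share RNA and arrays, and probe sets of 1 gene share a transcript, so these are not 11 independent observations. At 2-fold, 1 of the 11 was lower, against 1.46% of all measured probe sets, and 0 were higher, against 0.773%. In a sorted bulk sample, fewer cells of a type and less RNA per cell cannot be told apart.

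**Figure D1:**
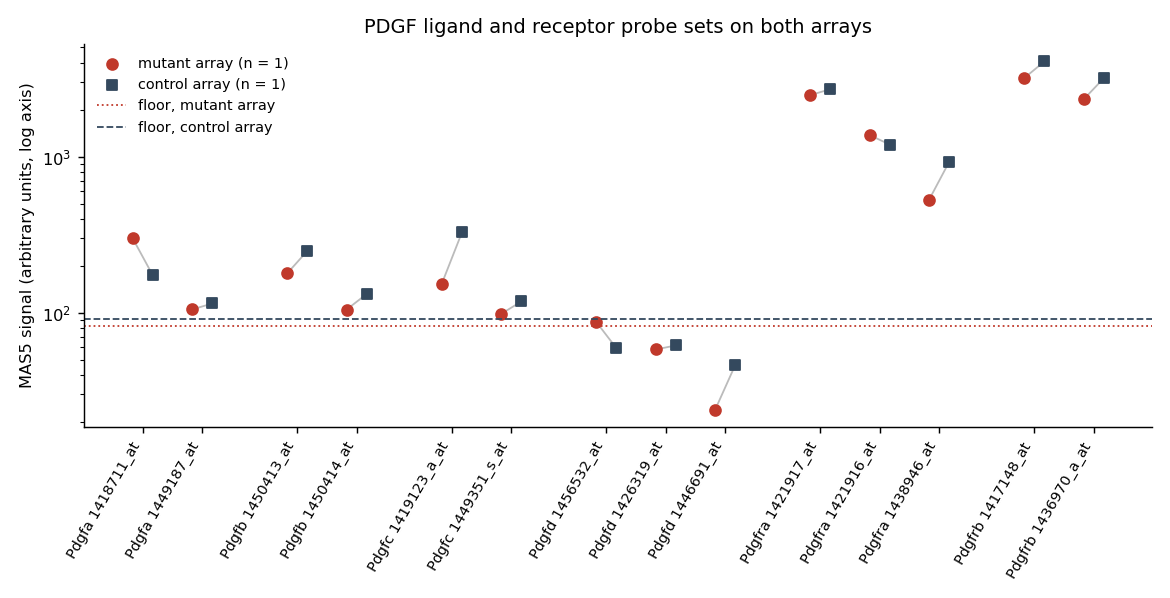
MAS5 signal (log axis, arbitrary units) of the 14 PDGF probe sets on the mutant array (circles) and the control array (squares), joined by a line, with the floor of each array dotted or dashed. The 3 Pdgfd probe sets lie between 23.9 and 87.3, the Pdgfa, Pdgfb and Pdgfc probe sets between 98.3 and 327, and the receptor probe sets between 530 and 4072.

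Promoter sequence is shown for Pdgfc and Pdgfa because they encode the ligands of the alpha receptor and their brightest probe sets were the lowest and the highest of the family, and for Pdgfra because it encodes that receptor. The 250 bases before each annotated start were taken from RefSeq on GRCm38.p6. Of the 6 members, 4 matched the promoter table, with 5 starts, 2 of them for Pdgfa. Each run is written 5' to 3' on the strand of the gene. Capitals mark the core of the T-box motif, AGGTGT on either strand, and the GC box bound by Sp1-type factors, GGGCGG on either strand. These motifs do not overlap in the windows shown.
Pdgfc, chr3:81036166-81036415, plus strand: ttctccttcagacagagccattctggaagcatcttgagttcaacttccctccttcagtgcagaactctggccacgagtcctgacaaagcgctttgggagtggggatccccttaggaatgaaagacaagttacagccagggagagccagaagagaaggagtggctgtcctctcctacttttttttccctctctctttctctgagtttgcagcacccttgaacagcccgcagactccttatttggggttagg
Pdgfa, upstream start, chr5:138994945-138995194, minus strand: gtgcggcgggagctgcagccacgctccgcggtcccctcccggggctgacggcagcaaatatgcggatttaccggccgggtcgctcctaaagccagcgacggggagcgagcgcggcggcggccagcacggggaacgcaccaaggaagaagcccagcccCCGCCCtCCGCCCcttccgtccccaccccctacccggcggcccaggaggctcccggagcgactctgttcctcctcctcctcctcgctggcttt
Pdgfa, downstream start, chr5:138994282-138994531, minus strand: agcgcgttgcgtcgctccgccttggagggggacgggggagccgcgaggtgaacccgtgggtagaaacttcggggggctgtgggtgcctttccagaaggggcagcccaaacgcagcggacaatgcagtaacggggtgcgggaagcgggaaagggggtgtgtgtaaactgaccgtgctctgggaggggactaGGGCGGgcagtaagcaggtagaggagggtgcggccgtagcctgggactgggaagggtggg
Pdgfra, chr5:75152001-75152250, plus strand: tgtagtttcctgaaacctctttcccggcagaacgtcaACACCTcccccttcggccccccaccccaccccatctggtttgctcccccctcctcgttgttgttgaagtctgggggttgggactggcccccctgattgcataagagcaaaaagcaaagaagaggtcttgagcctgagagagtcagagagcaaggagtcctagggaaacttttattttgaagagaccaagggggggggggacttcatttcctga
The only capitals in the Pdgfra window are 1 T-box core, written there as ACACCT, which begins 213 bases before the start. The Pdgfc window and both Pdgfa windows hold 0 T-box cores, and the Pdgfd window, not printed, also holds 0. Among all 32851 promoter windows of this length, 11.8% hold the T-box core. The GC box occurs 2 times before the upstream Pdgfa start, 1 time before the downstream one and 0 times in the Pdgfc and Pdgfra windows, and 32.7% of all windows hold it. The Pdgfa windows have 28 and 19 CG dinucleotides, that of Pdgfc 3 and that of Pdgfra 4, against a median of 6 over all windows. These are descriptions of the letters, since no binding was measured.

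Pdgfc, whose product is activated by tissue plasminogen activator, read 153 in the mutant and 327 in the control on its brighter probe set, 1419123_a_at. That is 2.14-fold lower in the mutant, a log2 ratio of -1.09. On the dimmer probe set, 1449351_s_at, it read 98.3 in the mutant and 118 in the control, a log2 ratio of -0.27. Both probe sets were thus lower in the mutant, but only the brighter one passed 2-fold, and the dimmer one lay at 1.19 times the floor in the mutant. They differed from each other by 0.83 on the log2 scale, against a median of 0.31 and a 90th percentile of 0.82 over the 3034 genes with 2 measured probe sets. The gene mean was -0.68 (SD 0.59 over 2 probe sets). At a mean signal of 200 to 1000, the range that holds the brighter probe set, 1.24% of 9462 measured probe sets were at least 2-fold lower. The suffix of 1449351_s_at marks probes that may also match transcripts of other genes, and whether they do was not tested.

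Pdgfa, which encodes a ligand that binds mainly the alpha receptor, read 300 in the mutant and 173 in the control on probe set 1418711_at. This was a log2 ratio of 0.79, or 1.73-fold higher, and did not reach 2-fold. On probe set 1449187_at it read 105 in the mutant and 115 in the control, a log2 ratio of -0.13. The 2 probe sets therefore pointed in opposite directions as deposited, although the platform annotation derives both from the same sequence record. A loess fit on brightness shifted the dimmer one by 0.15, more than its own ratio, so its sign depends on the scaling. Their gap of 0.92 exceeds the 90th percentile of 0.82 given above, and the dimmer one lay close to the floor on both arrays. The mean over both was 0.33 (SD 0.65 over 2 probe sets), smaller than its SD.

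Pdgfb, the chain that endothelial cells release toward mural cells, read 179 in the mutant and 249 in the control on probe set 1450413_at, and 105 in the mutant and 132 in the control on probe set 1450414_at. The log2 ratios were -0.48 and -0.34, a mean of -0.41 (SD 0.10 over 2 probe sets). The probe sets agreed within 0.15, closer than the median gap of 0.31, and neither reached 2-fold. Both are annotated to the same sequence record. The dimmer one lay near the floor, at 1.27 times it in the mutant and 1.45 times in the control. Among genes whose brightest probe set had a mean signal of 200 to 1000, as for Pdgfb, the SD between probe sets of a gene was 0.39. It was 0.49 where that signal was below 200. Over all measured genes the SD of the log2 ratio was 0.38, close to the size of the Pdgfb mean.

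Pdgfd, a ligand of the beta receptor, lay near or below the floor. Its 3 probe sets read 87.3, 58.2 and 23.9 in the mutant, against 59.1, 61.7 and 46.4 in the control. The first of them was above the floor in the mutant only, at 1.06 times the floor, and below the floor of the control array, so no fold is given. The other two were below the floor on both arrays, and Pdgfd was not well above background in this lineage on these arrays.

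Pdgfra, the receptor of cushion mesenchyme and cardiac fibroblast precursors, was measured by 3 probe sets that did not agree. On 1421917_at it read 2476 in the mutant and 2705 in the control, a log2 ratio of -0.13. On 1421916_at it read 1374 in the mutant and 1193 in the control, a log2 ratio of 0.20. On 1438946_at it read 530 in the mutant and 929 in the control, a log2 ratio of -0.81. The brighter ones, annotated to the same sequence record, differed little between arrays and in opposite directions, while the dimmest, annotated to another record, was 1.75-fold lower in the mutant. The range over the 3 was 1.01, against a median of 0.51 and a 90th percentile of 1.03 over the 1330 genes with 3 measured probe sets, of which 66.5% had both signs. The mean was -0.24 (SD 0.52 over 3 probe sets), smaller than its SD, so these arrays give no direction for Pdgfra as a gene.

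Pdgfrb, the receptor of mural cells and their precursors, read 3184 in the mutant and 4072 in the control on probe set 1417148_at, and 2328 in the mutant and 3183 in the control on probe set 1436970_a_at. The mutant signals were 78.2% and 73.1% of control. The log2 ratios of -0.35 and -0.45 lay within 0.10 of each other, with a mean of -0.40 (SD 0.07 over 2 probe sets). Both probe sets were lower in the mutant, at signals 28.2 times the floor or more on both arrays. The SD between probe sets of genes with a mean signal over 1000 was 0.31. Pdgfb, Pdgfc and Pdgfrb were the 3 members of which each measured probe set was lower, and 28.8% of all genes with 2 measured probe sets had both lower.

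**Figure D2:**
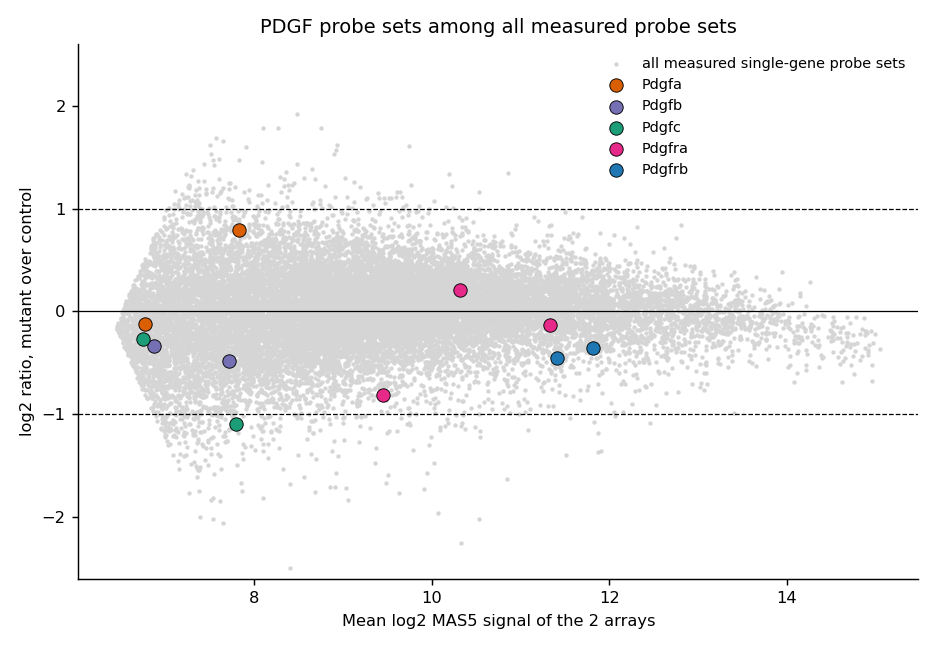
Log2 ratio of mutant over control against the mean log2 signal of the 2 arrays, for all 19273 measured single-gene probe sets (grey, 1 of them beyond the plotted range) and for the 11 measured PDGF probe sets (coloured by gene). Dashed lines mark 2-fold, which 1 Pdgfc probe set passes at -1.09, while both Pdgfrb probe sets sit together at -0.35 and -0.45 and the Pdgfra probe sets spread from -0.81 to 0.20.

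Scaling hardly moved the values of the brightest probe sets. After median scaling, quantile normalization and a loess fit on brightness, the log2 ratio of the brightest probe set stayed within -1.11 to -1.03 for Pdgfc, -0.50 to -0.42 for Pdgfb, -0.16 to -0.13 for Pdgfra and -0.37 to -0.35 for Pdgfrb, the reported values included. Pdgfa ranged from 0.77 to 0.85 in the same way. On the dimmer ligand probe sets the loess fit added more, 0.15 for Pdgfa, 0.14 for Pdgfb and 0.15 for Pdgfc. That turned the dimmer Pdgfa probe set, at -0.13 as deposited, slightly positive. The dimmer Pdgfb and Pdgfc probe sets, at -0.34 and -0.27 as deposited, stayed negative but came closer to no difference. The use of the median over probe sets moved Pdgfc to -0.68 and Pdgfa to 0.33, and Pdgfc then no longer passed 2-fold.

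**Figure D3:**
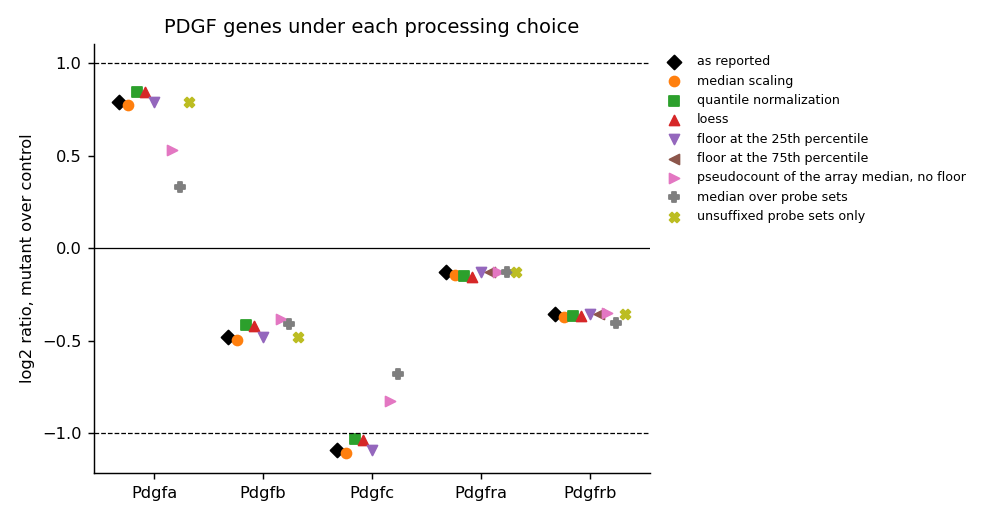
Log2 ratio of mutant over control of the 5 measured PDGF genes (vertical axis) as reported (black diamonds) and under each of 8 processing alternatives (other symbols), with dashed lines at 2-fold. No gene changes sign, but all alternatives except the median over probe sets read each gene from a single probe set. Pdgfc passes 2-fold under each alternative that gives it a value except the median over probe sets (-0.68) and a pseudocount (-0.83).

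Around the family, 77 genes of PDGF biology were listed in 6 groups by role. Of these, 73 matched the annotation and 65 were measured. Among the 65, 43 were lower and 22 higher in the mutant. Their median log2 ratio was -0.12, while 51% of all measured genes were lower. At 2-fold, 3 were lower, against 1.46% of all measured genes, and 0 were higher, against 0.647%. The 3 genes were Itgb3, A2m and Cxcl1.

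Pdgfrl, which encodes a secreted protein resembling the receptors' extracellular part, read 456 in the mutant and 628 in the control on its only probe set, a log2 ratio of -0.46. Among the related class III receptors and their ligands, 3 of 6 matched genes were measured, with 2 higher and 1 lower. Kit, the receptor of stem cell factor, was at 0.20, with its second probe set at 0.66. Its ligand gene Kitl was at 0.12, with probe sets from -0.34 to 0.18. Csf1, the macrophage growth factor gene, was at -0.56, with probe sets from -0.58 to -0.05. The median of this group was 0.12, and it turned negative in 3 of 6 alternatives, down to -0.22.

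Of the proteases that activate or process PDGF chains, 6 of 8 were measured, with 2 higher, 4 lower and a median log2 ratio of -0.12. Plat, the activator of PDGF-C, read 1388 in the mutant and 1564 in the control, a log2 ratio of -0.17. Furin, a proprotein convertase that cleaves PDGF-A and PDGF-B, was at 0.13, and its relatives Pcsk7 and Pcsk5 were at -0.48 and -0.46. The 3 measured Pcsk5 probe sets lay between -0.46 and -0.38. Plg and St14, which encode plasminogen and matriptase, were below the floor on both arrays.

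Of 9 measured genes for binding proteins and coreceptors, 7 were lower and 2 higher. Their median log2 ratio was -0.21. Itgb3, the integrin subunit that cooperates with the beta receptor, read 99.6 in the mutant and 283 in the control, a log2 ratio of -1.51. A2m, a protease inhibitor that binds PDGF, read 115 in the mutant and 235 in the control, a log2 ratio of -1.03. Each rested on 1 measured probe set, and both were near the floor in the mutant. Cspg4, the NG2 proteoglycan of pericytes, was at -0.93 and -1.08 on its 2 probe sets. The PDGF-binding matrix protein gene Sparc was at -0.19, and Nrp1, a coreceptor, was at 0.13.

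Receptor-proximal signalling genes went in both directions, more of them lower than higher. Of 28 measured, 17 were lower and 11 higher, while 51% of all measured genes were lower. Of the 28, 0 passed 2-fold, and their median log2 ratio was -0.08. Grb2, the adaptor that links the receptors to Ras, read 1292 in the mutant and 931 in the control, a log2 ratio of 0.47, with its second probe set at 0.44. Rasa1, the Ras GTPase-activating protein that docks on the beta receptor, was at 0.37, with its other measured probe sets at 0.07 and -0.24, and Pik3r2, a regulatory subunit of PI3-kinase, at 0.31. Lowest was the adaptor gene Crkl, which read 1048 in the mutant and 2095 in the control, just short of 2-fold. The feedback inhibitor gene Socs3 followed at -0.94 and Stat5b at -0.69. The 3 measured Socs3 probe sets lay between -0.94 and -0.81, but the other measured Crkl probe sets were at -0.26 and 0.48. Shc1, another adaptor, was at 0.28. Nck2 was at -0.30, while a second measured probe set of Nck2 was at 0.34.

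Genes that PDGF induces in cultured fibroblasts had 13 of 18 measured members lower and 5 higher. The median log2 ratio of the list was -0.20. Cxcl1, a chemokine gene found through its induction by PDGF, read 800 in the mutant and 1697 in the control, a log2 ratio of -1.09, and its 3 probe sets lay between -1.09 and -0.78. Ccl2, another such chemokine gene, was at -0.75 and Srf, the serum response factor, at -0.72. Egr1 was at -0.53 and Odc1 at -0.46, with its measured probe sets reaching 0.01. Higher in the mutant were Hmox1 at 0.46, Myc at 0.37 and Tiparp at 0.28, whose measured probe sets ran from -0.33 to 0.33. Many stimuli besides PDGF induce these genes, so the list gives no direction of PDGF signalling.

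**Figure D4:**
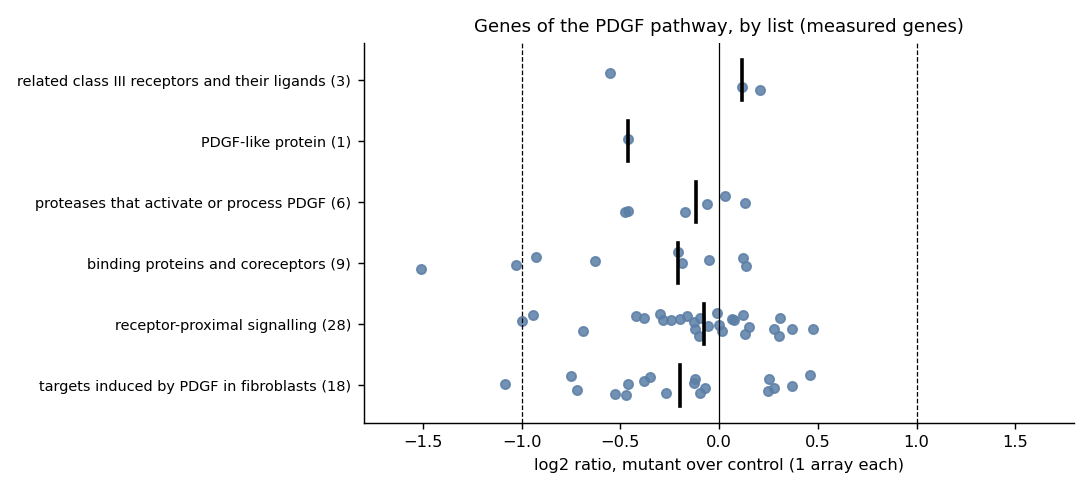
Log2 ratio of mutant over control (horizontal axis) of each measured gene in the 6 lists of PDGF biology, with the number of measured genes in parentheses, a black bar at each median and dashed lines at 2-fold. The 3 genes below the lower line are Itgb3 at -1.51, Cxcl1 at -1.09 and A2m at -1.03, and 0 genes lie above the upper line.

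Markers of the cells that carry or release PDGF moved in different directions in the same arrays. The endothelial and endocardial markers were all 8 measured, with summed signals of 48867 in the mutant and 47006 in the control. Their median log2 ratio was 0.06. Neither array held unsorted cells, so these values cannot check the purity of the sort. Of the 8 markers, 5 were higher and 3 lower, from Cldn5 at -0.70 to Npr3 at 0.25, and the sums are dominated by the brightest genes. The brightest were Emcn at 0.11, Cdh5 at 0.01, Tek at -0.01 and Pecam1 at 0.12. All 8 markers of cushion mesenchyme were lower, with summed signals of 37556 in the mutant and 51273 in the control and a median of -0.63. The brightest were Col3a1 at -0.07, Vcan at -0.50, Postn at -0.73 and Snai2 at -0.89.

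Of 8 epicardial and mesothelial markers, 7 were measured and all 7 were higher, with summed signals of 8339 in the mutant and 4841 in the control and a median log2 ratio of 0.62. Msln was below the floor on both arrays. Of 8 smooth muscle and pericyte markers, 7 were measured, 3 higher and 4 lower, with summed signals of 7647 in the mutant and 8086 in the control and a median of -0.03. The brightest of that list were Acta2 at -0.16, Tagln at -0.03, Notch3 at 0.58, with its second probe set at -0.38, and Cnn1 at 0.01. Cspg4, named above, is also in that list, and Myh11 was below the floor on both arrays. The receptor genes, carried by these cell types, thus stood beside one marker group that was lower, one that was higher and one of mixed sign. The part of these cells in the Pdgfra and Pdgfrb values was not tested.

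Markers of the blood cells that the sort removes, of myocardium and of neural crest were read in the same way. Of 6 megakaryocyte and platelet markers, 4 were below the floor on both arrays, and Pf4, the platelet factor gene, read 295 in the mutant and 214 in the control. Of 6 macrophage markers, 4 were below the floor on both arrays. Csf1r was above it in the control only, and Cd68 read 162 in the mutant and 93.8 in the control. The 6 myocardial markers were all measured, with 3 higher and 3 lower and summed signals of 15551 in the mutant and 12236 in the control. The 4 matched erythroid markers summed to 7344 in the mutant and 11312 in the control, of which Hbb-y alone made up 6606 and 9843. The 3 measured ones were all lower in the mutant, with Klf1 lowest at -1.10. The 4 matched neural crest and neural markers summed to 9894 in the mutant and 5824 in the control. Ednrb alone made up 9622 in the mutant and 5377 in the control, so the sum is that of 1 gene in the main. The measured Ednrb probe sets lay between 0.29 and 0.84, the brightest being the highest. Of the other matched markers, Ngfr was at -0.55, Sox10 was below the floor in the mutant and Foxd3 was below it on both arrays. The part of any of these cells in the ligand values was not tested.

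**Figure D5:**
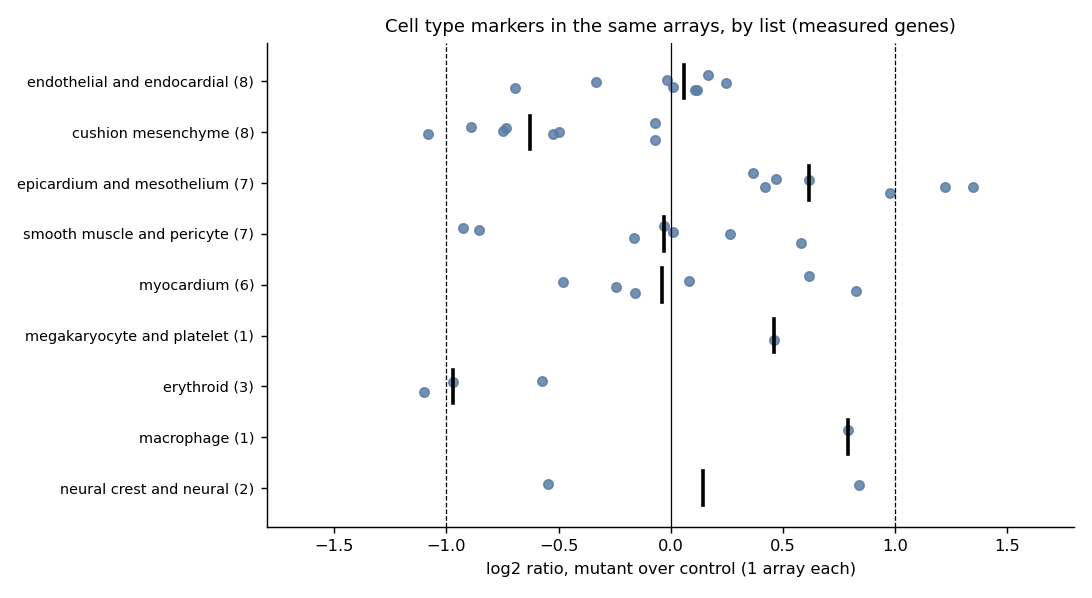
Log2 ratio of mutant over control (horizontal axis) of each measured marker in the 9 cell type lists, with the number of measured markers in parentheses, a black bar at each median and dashed lines at 2-fold. The 8 cushion mesenchyme markers lie between -1.08 and -0.07, the 7 epicardial and mesothelial markers between 0.37 and 1.35, and the 8 endothelial and endocardial markers between -0.70 and 0.25.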

How the data were processed

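Expression was measured on 1 Affymetrix array of mutant and 1 of control cells. The authors deposited 1 intensity per probe set, computed with MAS5 per the submitters' processing notes. The trimmed mean of each array, without the lowest and highest 2% of its 45101 probe sets, was 500.003. The sources used here give no version, settings or build. Subtraction of mismatch probes makes dim ratios noisy.

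Signals were put on the log2 scale in Python 3.11.15 with statsmodels 0.14.6 for loess (span 0.3). Of the probe sets, 64 controls were left out, and 34945 of the other 45037 named 1 gene in the platform annotation. The floor was each array's median, and a gene was represented by its brightest probe set, by mean log2 signal. With 1 array per genotype no test was made. Genes were counted at 2-fold, and agreement between probe sets of a gene was the only internal error, which leaves out animals. Precision is limited by the number of arrays. The gene step was tested on simulated data with 200 genes changed, all brighter than the PDGF ligand genes and by larger ratios than any member. That test does not cover signals as dim or ratios as small as those reported. The members, lists and rules were chosen with earlier results of these data known. The rule named every member, Tbx20, from each pathway list the 3 measured genes of largest ratio in each direction and the 2 brightest, and from each marker list the 4 brightest; of these the text prints some. Cldn5, Npr3, Ngfr, Sox10 and Foxd3 were named after their values were seen, as were genes given as below the floor. Alternatives were 3 scalings, 2 floors, a pseudocount, the median over probe sets, and unsuffixed probe sets only.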

Additional observations from a re-analysis of the deposited data

How the results depend on the processing

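The gene log2 ratios of Pdgfb, Pdgfra and Pdgfrb moved by less than the spread between probe sets under each alternative that gave a value. Their ranges were -0.50 to -0.38, -0.16 to -0.13 and -0.40 to -0.35. The -0.40 of Pdgfrb came from the median over probe sets. With the median over probe sets, Pdgfa was at 0.33 and Pdgfc at -0.68. No measured PDGF gene changed sign under the alternatives run, but all except the median over probe sets read each gene from a single probe set. For Pdgfra the median was also the value of its brightest probe set, -0.13. The kept signs therefore do not settle the disagreement between probe sets of Pdgfa and of Pdgfra. For Pdgfa the opposite sign itself depends on scaling, since the loess shift of the dimmer probe set, 0.15, exceeds its -0.13 in size. The PDGF probe sets at least 2-fold lower numbered 0 with the floor at the 75th percentile, which leaves only receptor probe sets, and 0 with the pseudocount, which shrinks ratios of dim probe sets, against 1 otherwise. Pdgfd had a value only with the floor at the 25th percentile (0.56) or a pseudocount (0.17), and Pdgfc had no unsuffixed probe set. Over all genes, 233 were at least 2-fold higher with the floor at the 25th percentile, 12 at the 75th and 25 with the pseudocount, against 69 as reported. At least 2-fold lower were 537 with the lower floor and 34 with the higher one, against 156 as reported. The medians of the pathway lists kept their sign under the alternatives run, except that of the related class III receptors and their ligands, which was -0.22 with the lower floor, -0.13 with the pseudocount and -0.05 with the median over probe sets. No replicate could be left out, with 1 array per genotype. No paired analysis was possible because each genotype has 1 array. Signals near the floor limit the ligand values, and the receptor values lie well above it.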
